A study of Mus musculus with 10 samples.

Results

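Genes of milk proteins were examined in sorted wild-type mammary cells. The set holds 10 listed genes: the caseins Csn1s1, Csn1s2a, Csn2 and Csn3, the whey genes Wap and Lalba, and Glycam1, Btn1a1, Xdh and Lao1. They were picked by name from the table of raw read counts, and all 10 were found among its 24594 genes, identified by Entrez number and matched to mouse symbols. The libraries came from wild-type C57BL/6J mice, for which the labels list no transgene and no treatment. After enzymatic dissociation of the gland, 2 populations were sorted on the surface proteins EpCAM and CD49f. Staining with lineage antibodies to TER-119, CD31 and CD45, which mark red blood, endothelial and immune cells, is also described in the study's methods but not in the labels of these samples. Luminal cells line the lumen of ducts and alveoli and include the cells that can make milk, and basal cells surround them and contract to expel it. Bulk RNA-seq gave 5 luminal and 5 basal libraries, with 13203146 to 17998165 counts each. The labels give no age, parity or oestrous stage, and the study's methods give only an age range for the mice of its experiments in general. Each library pools all the cells of its gate, so luminal progenitors and hormone-sensing luminal cells share a library.

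Titles and cell type labels of the samples contradict each other on which population a library holds, and grouping followed the cell type label. Markers followed that label: all 7 luminal markers, all 5 hormone-sensing luminal markers and all 5 luminal progenitor markers were higher in luminal libraries, and all 7 basal markers were higher in basal libraries (edgeR quasi-likelihood test, adjusted p under 0.05). Same-numbered luminal and basal libraries were read as coming from 1 animal. The p-values below measure the spread between these libraries. In bulk samples, fewer cells of a type and less RNA per cell cannot be told apart.

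Milk proteins are made by luminal cells of the alveoli, most of all in late pregnancy and lactation. Prolactin, bound by its receptor on the luminal cell, activates the kinase JAK2 and the transcription factor STAT5, which acts with glucocorticoid receptor, C/EBPβ and ELF5 at milk gene promoters. Calcium-sensitive caseins (Csn1s1, Csn1s2a, Csn2) carry calcium phosphate in micelles, and κ-casein (Csn3) coats and stabilises those micelles. Lalba encodes α-lactalbumin, the partner of the galactosyltransferase that makes lactose. Wap encodes whey acidic protein. Btn1a1 (butyrophilin) and Xdh (xanthine oxidoreductase, also an enzyme of purine breakdown in many tissues) sit at the surface of milk fat globules as these leave the cell. Glycam1 encodes a mucin-like milk glycoprotein that is also made by the endothelium of lymph node venules, and Lao1 encodes an amino acid oxidase found in milk.

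The first coding bases of the 4 caseins are shown because the one casein that was abundant here differs from the others in its sequence as well as in its level. They are the first 60 coding bases of 1 GENCODE M21 transcript each (GRCm38), with the first 45 bases, which lie in the signal peptide, in capitals.
Csn1s1: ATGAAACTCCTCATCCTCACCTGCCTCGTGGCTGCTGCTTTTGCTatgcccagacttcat
Csn1s2a: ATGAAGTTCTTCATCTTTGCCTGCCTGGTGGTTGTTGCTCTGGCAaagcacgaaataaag
Csn2: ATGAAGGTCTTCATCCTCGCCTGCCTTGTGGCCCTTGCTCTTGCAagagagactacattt
Csn3: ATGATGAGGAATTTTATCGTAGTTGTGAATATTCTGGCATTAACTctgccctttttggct

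Over those 45 bases, without gaps, Csn2 was identical to Csn1s2a at 82.2% and to Csn1s1 at 77.8%, and Csn1s1 to Csn1s2a at 73.3%. Csn3 matched the other 3 at 33.3% to 37.8%. The calcium-sensitive caseins are known to share an ancestor that Csn3 does not.

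Promoter windows are shown for Csn1s1 and Csn2, which were almost uncounted here, and for Lalba, which had counts in every luminal library. Each is the 250 bases before the RefSeq start (GRCm38.p6), read along the gene's strand. Capitals mark TTCNNNGAA, the letters of the site that STAT5 is known to bind, which read the same on both strands.
Csn1s1 (chr5:87665958-87666207, plus strand): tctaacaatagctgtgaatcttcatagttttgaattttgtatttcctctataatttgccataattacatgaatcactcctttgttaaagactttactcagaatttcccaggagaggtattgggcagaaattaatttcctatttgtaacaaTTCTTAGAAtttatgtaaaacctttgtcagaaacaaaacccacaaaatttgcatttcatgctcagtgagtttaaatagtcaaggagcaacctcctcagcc
Csn2 (chr5:87699426-87699675, minus strand): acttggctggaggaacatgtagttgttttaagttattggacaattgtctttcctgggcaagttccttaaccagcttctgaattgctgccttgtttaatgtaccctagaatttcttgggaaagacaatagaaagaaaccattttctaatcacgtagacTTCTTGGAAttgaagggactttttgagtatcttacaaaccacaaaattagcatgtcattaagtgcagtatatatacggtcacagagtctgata
Lalba (chr15:98482684-98482933, minus strand): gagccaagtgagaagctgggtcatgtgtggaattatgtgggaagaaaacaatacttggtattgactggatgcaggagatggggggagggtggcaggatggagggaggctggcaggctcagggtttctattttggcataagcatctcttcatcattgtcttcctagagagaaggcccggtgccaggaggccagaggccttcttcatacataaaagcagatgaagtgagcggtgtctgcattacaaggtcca

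The motif begins at position -100 in Csn1s1 and at position -93 in Csn2, counted back from the start, and these letters are not in the Lalba window. Of the 7 members in the promoter table (Csn1s1, Csn1s2a, Csn2, Wap, Lalba, Glycam1 and Lao1), 3 held the motif, the other being Glycam1 at position -145. Besides Lalba, the motif was absent from the windows of Csn1s2a, which had 8 luminal counts, and of Wap and Lao1, which had 0. Of all 32851 promoter windows of that length, 7.0% held it. A match of letters is a description of the window and not a measured site.

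Of the 10 members, 8 had at least 1 count in the 10 libraries, and 3 (Csn3, Btn1a1 and Xdh) passed the filter on low counts. Of these, 2 were called higher in luminal libraries (Csn3 and Btn1a1, edgeR quasi-likelihood test, adjusted p under 0.05). In basal libraries 0 were called higher, and Xdh did not pass the test. All 3 log2 fold changes were positive, so a call of these genes towards basal libraries was not possible. DESeq2 also called 0 of 7 members towards basal libraries. Those 7 changes were all positive too, and Glycam1 had no DESeq2 p-value. Among all 14609 genes tested, the shares called were 33.6% towards luminal and 31.2% towards basal libraries, so a call in either direction was common. A low gene passes the filter only through the group where it is high. Wap and Lao1 were not counted in any library.

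**Figure D1:**
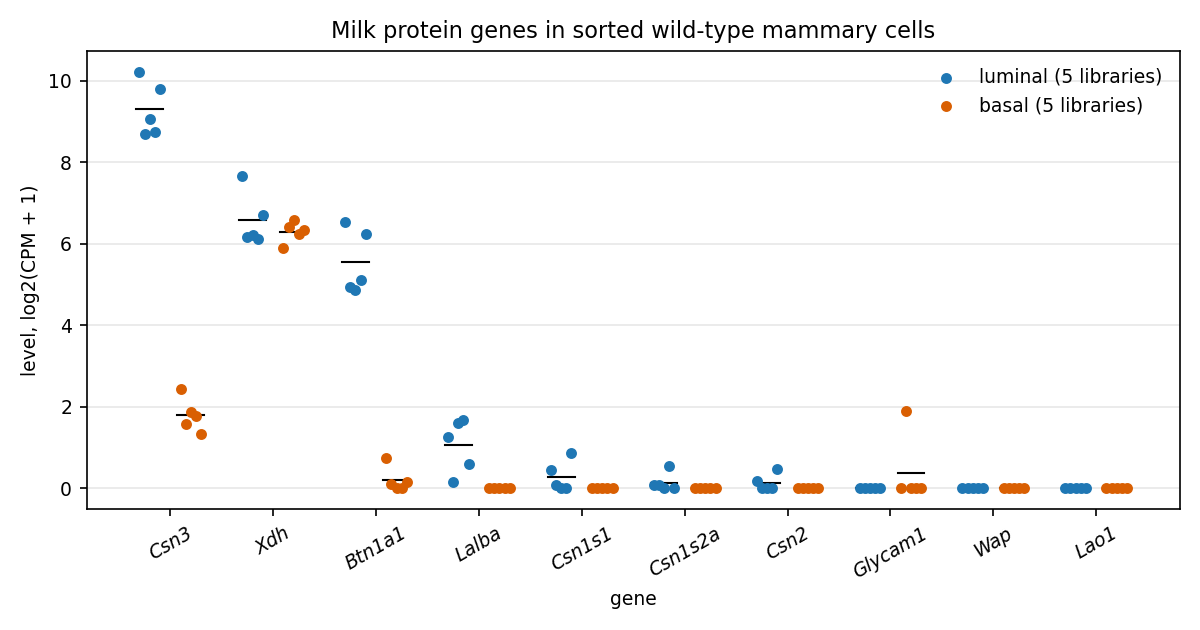
Level of each milk protein gene in each library, as log2(CPM + 1), with 5 luminal libraries (blue), 5 basal libraries (orange) and a black line at each group's mean. Csn3 and Btn1a1 separate the groups, Xdh overlaps between them, and the remaining genes lie near 0 but for Lalba in luminal libraries and Glycam1 in 1 basal library.

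Csn3 (Entrez 12994, chromosome 5, 87925579 to 87932550 in GRCm38.p6, plus strand, 5 exons) had the most counts of the 10 members. Luminal replicates 1 to 5 had 19144, 7849, 8769, 5576 and 13920 counts, and basal replicates 1 to 5 had 71, 29, 34, 39 and 25. As CPM, the count scaled to library depth with TMM factors, this was 691 ± 341 (SD, n = 5) in luminal and 2.59 ± 1.11 (SD, n = 5) in basal libraries. The lowest luminal library, at 413 CPM, lay far above the highest basal library, at 4.43 CPM. The log2 fold change was 8.05 (SE 0.43, edgeR adjusted p = 1.44e-09), and Csn3 was higher in luminal cells in 5 of 5 pairs. All luminal values lay above all basal values, which held for 24.7% of the genes tested.

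The other caseins were close to absent. Csn1s1 (Entrez 12990, 34 exons) had 6, 1, 0, 0 and 13 counts in luminal replicates 1 to 5. Csn1s2a (Entrez 12993, 14 exons) had 1, 1, 0, 6 and 0, and Csn2 (β-casein, Entrez 12991, 9 exons) had 2, 0, 0, 0 and 6. None of the 3 had a count in any basal library, where 0 counts over the group allow a level of up to 0.0393 CPM (3 counts of the scaled total, for counting error only). The summed luminal counts were 20, 8 and 8, against 55258 for Csn3. Csn3 thus held 99.9% of the luminal casein counts. Without the filter on low counts, the adjusted p of edgeR was 0.0266 for Csn1s1, 0.0629 for Csn1s2a and 0.0763 for Csn2. With DESeq2 it was 0.0708 for Csn1s1, so that call rests on the test used.

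Summed over the 4 caseins, the mean of log2(CPM + 1) was 9.31 ± 0.68 (SD, n = 5) in luminal and 1.80 ± 0.42 (SD, n = 5) in basal libraries. The difference was 7.51 (exact permutation test over libraries, two-sided, p = 0.00794, the smallest that 5 against 5 allows). With the libraries paired by replicate number, the exact sign-flip test gave p = 0.0625, which is also the smallest that 5 pairs allow. Without Csn3 the difference fell to 0.49 (exact permutation p = 0.0476, with the libraries unpaired). That remainder rests on 9, 2, 0, 6 and 19 counts in luminal replicates 1 to 5, so replicates 1 and 5 held most of it and replicate 3 none. As all basal libraries were also at 0, a sign-flip test over pairs could not give a p as low as 0.0625 for it.

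Because CPM does not account for length, levels were compared between genes per kilobase. Where counts of several genes are set side by side elsewhere, they carry no correction for length. The right length is uncertain, because counts at the Csn3 locus show reads entered for a gene that has only an intron there. Counting thus may have covered whole genes with their introns. Per kilobase of transcript, mean luminal levels were 433 ± 213 CPM for Csn3, 22.6 ± 12.4 for Xdh, 15.1 ± 8.68 for Btn1a1, 1.62 ± 1.20 for Lalba and 0.178 ± 0.253 for Csn1s1 (SD, n = 5). Csn1s2a at 0.125 ± 0.211 and Csn2 at 0.0761 ± 0.124 followed. The last 3 genes did not differ beyond their spread. Xdh and Btn1a1 overlapped between libraries, but within each of the 5 luminal libraries Xdh was 1.02 to 1.95 times Btn1a1 per kilobase of transcript. Csn3 stood first on either scale. Per kilobase of the whole gene, introns included, Btn1a1 at 5.81 ± 3.33 CPM lay above Xdh at 1.56 ± 0.863 (SD, n = 5), and Xdh was 0.185 to 0.352 times Btn1a1 within the 5 libraries, so the order of those 2 genes depends on the length used.

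Exon size differs among the members in a way that bears on counting, since the aligner named for this study does not split reads across exon junctions. For the read length of 51 bases that the study describes, 32.8% of the positions in the Csn1s1 transcript start a read that stays inside 1 exon. The share is 44.5% for Csn1s2a, 75.8% for Csn2, 88.7% for Csn3, 79.2% for Lalba and 70.1% for Wap. Csn1s1 has 31 exons shorter than such a read and Csn3 has 2. The part of this in the low casein counts was not tested.

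The caseins lie in 1 cluster on chromosome 5, and the genes between them were read as neighbours of the same stretch. From the start of Csn1s1 to the start of Csn3 is 259.4 kb, with Csn2 at 26.4 kb, Csn1s2a at 108.2 kb and Csn1s2b, a further casein, at 141.9 kb. Csn1s2b had 11 luminal counts and 1 basal count in all. Prr27 had 1 count in each group, and Odam, which encodes a protein of the tooth enamel organ, had 1 count in luminal and 0 in basal libraries. Gm7337 and BC037156 were at 0. The pseudogenes Gm25066 and Gm24314 of the stretch were not analysed here. Nearly all counts of the cluster thus lay at its Csn3 end, where 2 genes overlap.

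**Figure D2:**
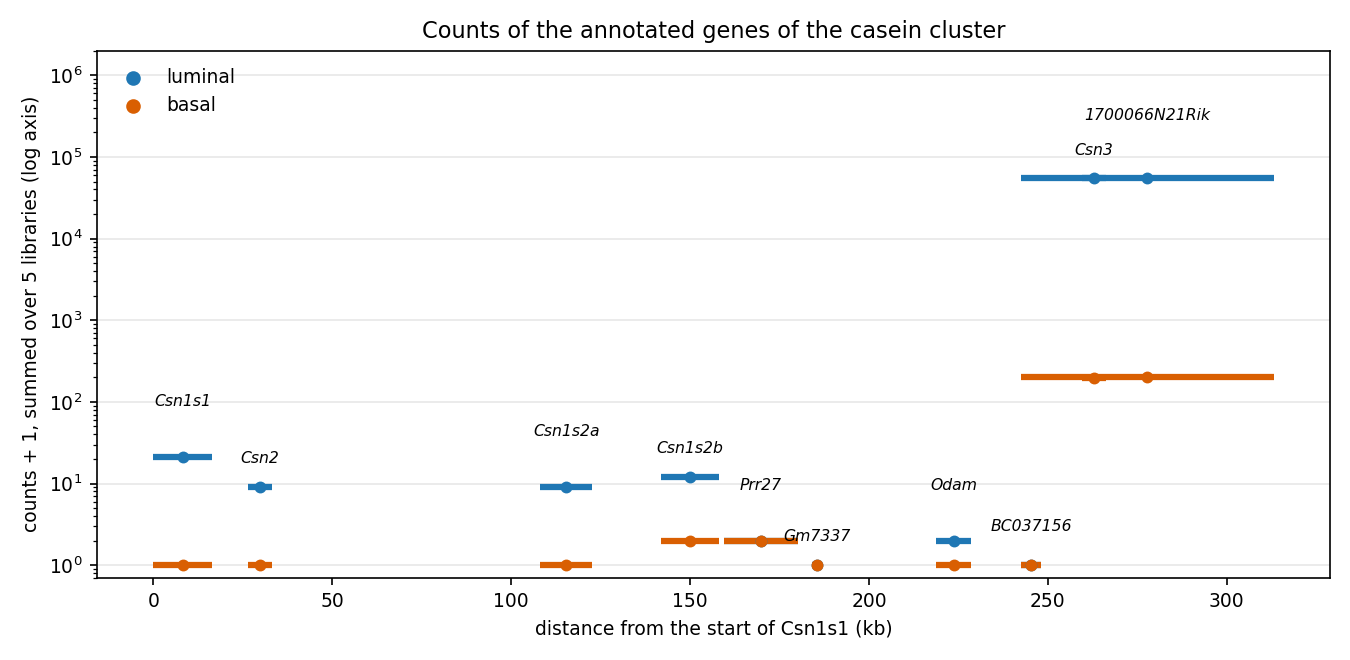
Counts summed over 5 libraries plus 1 (log axis) for the annotated genes of the casein cluster, against distance from the start of Csn1s1 in kb, with bars spanning each gene, blue for luminal and orange for basal. Csn3 and the antisense gene 1700066N21Rik, which spans it, stand at 55258 and 55310 luminal counts, and every other gene had 20 or fewer. Where both groups hold the same count, the orange bar covers the blue.

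The non-coding gene 1700066N21Rik (Entrez 73471) runs on the minus strand, opposite to Csn3, and had nearly the same counts as Csn3 in every library. Its counts were 19154, 7856, 8784, 5585 and 13931 in luminal and 72, 29, 34, 39 and 25 in basal replicates 1 to 5. The excess over Csn3 was 0 to 15 counts a library, and in 4 of 10 libraries both genes had the same count. In GENCODE M21 all of Csn3 lies in an intron of 1700066N21Rik, and their exons share 0 bases. Reads over Csn3 therefore entered both rows, and at most 15 counts a library fell in 1700066N21Rik outside Csn3. The library kit named in the labels does not mark strand, so reads of the 2 strands cannot be told apart. The values of 1700066N21Rik are not a separate measurement.

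Lalba (Entrez 16770, chromosome 15, 98480400 to 98482934, minus strand, 4 exons) was low but was counted in all 5 luminal libraries. Luminal replicates 1 to 5 had 22, 2, 33, 29 and 8 counts and all basal libraries had 0. In luminal libraries the level was 1.25 ± 0.923 CPM (SD, n = 5). Against a floor of 3 counts over the basal group, Lalba was at least 29.8-fold higher in the luminal group, and at least 24.3-fold to 38.3-fold when each luminal library was left out in turn. It did not pass the filter on low counts. Without the filter its adjusted p was 4.45e-04 in edgeR, where 24.1% of the 20612 genes tested were higher in luminal libraries. By CPM, Lalba was highest in replicates 4 (2.21), 3 (2.02) and 1 (1.38), which is another order than that of Csn3.

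Wap (Entrez 22373, chromosome 11, 6635483 to 6638654) had 0 of 74982424 luminal and 0 of 81591946 basal counts, which allows a level of up to 0.0374 CPM in luminal and 0.0393 CPM in basal libraries. Lao1 (Entrez 100470, chromosome 4, 118961967 to 118968910) was at 0 with the same limits. Neither gene was detectable at this depth. Glycam1 (Entrez 14663, chromosome 15, 103562759 to 103565081) was at 0 in all luminal libraries and in 4 of 5 basal libraries, and had 40 counts in basal replicate 2 (2.73 CPM). Without the filter edgeR called it higher in basal libraries (adjusted p = 0.0304, beside 24.7% of all genes in that direction), and that call came from 1 library. In the same library the 3 endothelial markers summed to 12.4 CPM, the highest of the basal range of 5.73 to 12.4, and 5 immune markers to 28.4 CPM, within the basal range of 26.2 to 52.02. Of the endothelial markers, Cdh5 was at 6.69 CPM there and at 2.69 to 5.05 in the other basal libraries, and Kdr at 0.955 CPM there and at 0 to 0.420 in the others. Pecam1 was at 4.78 CPM there and higher, at 5.99 CPM, in basal replicate 1, which had no Glycam1 count. Of the immune markers, Cd3e was at 0 in every library. CD31, the product of Pecam1, and CD45 are among the lineage antigens that the study's methods stain. The part of such cells in the Glycam1 value was not tested.

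Among the genes of milk fat globule release, Btn1a1 (Entrez 12231, chromosome 13, 23456984 to 23465914, minus strand, 8 exons) was counted almost wholly in luminal libraries. Luminal replicates 1 to 5 had 1473, 567, 459, 443 and 1183 counts, and basal replicates 1 to 5 had 11, 1, 0, 0 and 2. The level was 51.8 ± 29.7 CPM in luminal and 0.175 ± 0.290 CPM in basal libraries (SD, n = 5 each). All luminal values lay above all basal values, by a log2 fold change of 8.09 (SE 0.64, edgeR adjusted p = 7.53e-08). Basal replicate 1 held 11 of the 14 basal counts, and without it the log2 fold change was 9.80 (adjusted p = 8.56e-08).

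Xdh (Entrez 22436, chromosome 17, 73883895 to 73950397, minus strand, 36 exons) was counted in both layers. Luminal replicates 1 to 5 were at 203, 70.4, 73.8, 68.3 and 103 CPM, and basal replicates 1 to 5 at 58.2, 84.1, 94.9, 74.2 and 80.3 CPM. The groups overlapped, and Xdh was higher in luminal cells in 2 of 5 pairs, replicates 1 and 5. The log2 fold change was 0.41 (SE 0.27, edgeR adjusted p = 0.209), so no difference larger than the spread between libraries was found. Without luminal replicate 1 it was 0.03 (adjusted p = 0.901), and without luminal replicates 1 and 5, left out together after the values were seen, it was -0.15 (adjusted p = 0.442). Those 2 libraries held the highest luminal values, so the change of sign restates the values above and is no separate test. Of all 10 members, Xdh alone had over 100 counts in a basal library.

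Csn3 and Btn1a1 varied widely between luminal libraries, and Xdh did so through 1 library. The coefficient of variation over the 5 luminal libraries was 49.3% for Csn3, 57.3% for Btn1a1 and 55.2% for Xdh, beside a median of 19.9% for the 9805 genes tested with a mean of at least 10 CPM. These values lay above those of 96.3%, 98.2% and 97.8% of these genes. Without luminal replicate 1 the coefficient of Xdh was 20.7%, near the median of 18.9% in the same 4 libraries, and those of Csn3 and Btn1a1 were 38.8% and 53.6%. Between basal libraries Xdh varied by 17.3%, near the median of 15.9%.

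In all 3 genes luminal replicates 1 and 5 were the highest and the other 3 libraries lay close together. Csn3 was at 1197 and 883 CPM in replicates 1 and 5, against 413 to 538 in the others. Btn1a1 was at 92.1 and 75.1 CPM against 28.2 to 33.8, and Xdh at 203 and 103 CPM against 68.3 to 73.8. The counts of the genes relative to each other ranged less than their levels. Btn1a1 had 0.382 to 0.727 counts for each count of Xdh, a range of 1.91 times. Csn3 had 5.88 to 8.56 counts for each count of Xdh, a range of 1.46 times, and 11.8 to 19.1 for each count of Btn1a1, a range of 1.62 times, whereas the levels of Csn3, Btn1a1 and Xdh ranged over 2.90, 3.27 and 2.97 times. With 5 luminal libraries no correlation is given.

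The summed luminal progenitor markers were also highest in those libraries. The 5 luminal progenitor markers (Kit, Elf5, Cd14, Aldh1a3 and Ltf) summed to 5452 and 4260 CPM in luminal replicates 1 and 5 and to 1534 to 1958 CPM in the others. The 5 hormone-sensing markers (Esr1, Pgr, Prlr, Areg and Cited1) summed to 2000 and 2295 CPM in replicates 1 and 5 and to 1472 to 1930 in the others, of which Pgr alone was at 611 and 426 CPM against 86.0 to 253. Without Pgr the sum was 1389 CPM in replicate 1 and 1869 in replicate 5, against 1229 to 1677 in the others, so that replicate 4 lay above replicate 1. Areg was lowest in replicates 1 and 5 (55.7 and 62.7 CPM against 67.3 to 162), and Cited1 was lowest in replicate 1 (66.3 CPM) and highest in replicate 2 (205 CPM). The 7 general luminal markers summed to 14186 to 19445 CPM, with replicates 1 and 5 neither lowest nor highest. The 4 fibroblast markers summed to 107 CPM in luminal replicate 1 against 17.8 to 53.6 in the others. This came from Dcn, at 95.1 CPM in replicate 1, while Pdgfra and Col1a1 were highest in replicate 5 and Lum in replicate 3. The part of cell composition in the spread of the milk protein genes was not tested. Without luminal replicates 1 and 5, Csn3 and Btn1a1 were still called, with log2 fold changes of 7.46 and 7.32 (edgeR adjusted p = 1.68e-09 and 3.27e-07).

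**Figure D3:**
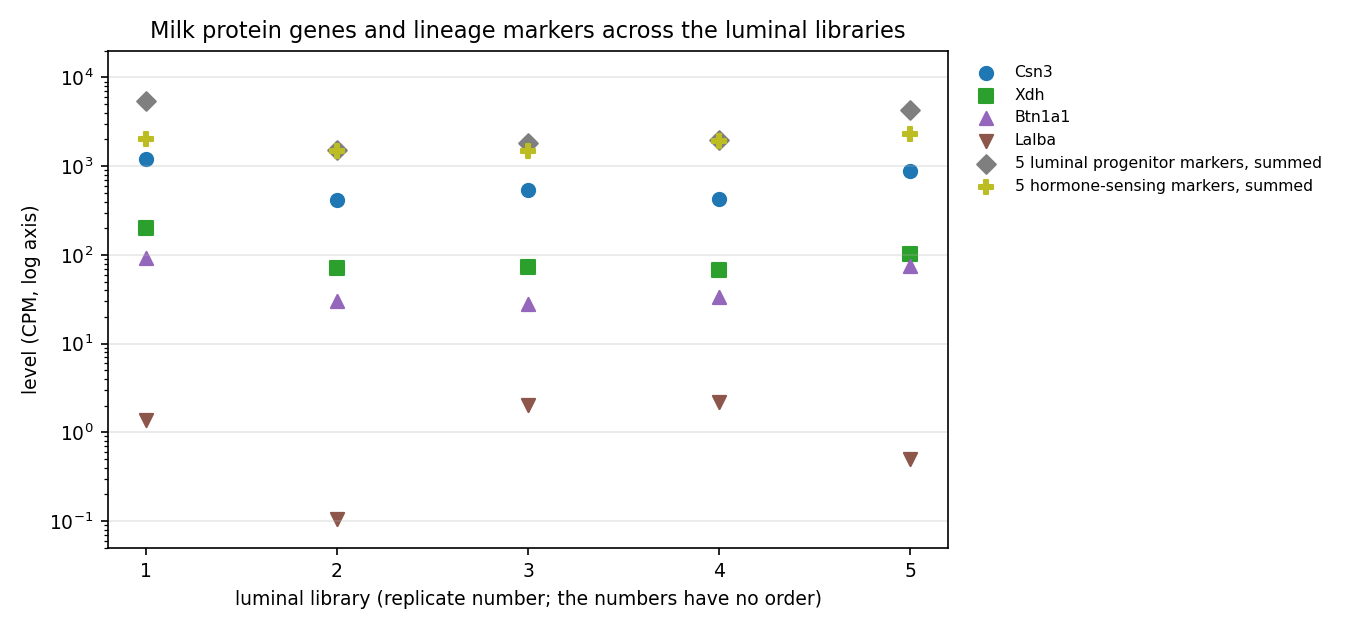
Levels in CPM (log axis) of Csn3, Xdh, Btn1a1 and Lalba and of the summed luminal progenitor and hormone-sensing markers in the 5 luminal libraries. Replicates 1 and 5 are highest for Csn3, Xdh, Btn1a1 and both marker sums (for hormone-sensing markers without Pgr, replicate 4 lies above replicate 1), and Lalba is lowest in replicates 2 and 5.

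The basal counts of Csn3 and Btn1a1 were set beside those of other luminal genes, since a sort can carry over cells or RNA. Across the 5 pairs the basal level of Csn3 was 0.170% to 0.573% of that in the same-numbered luminal library, and that of Btn1a1 was 0% to 0.745%. Luminal progenitor markers spanned the same low range, with 0.0341% to 0.351% for Ltf, 0.142% to 0.867% for Cd14 and 0.375% to 1.32% for Kit. The hormone-sensing markers differed among themselves. Prlr was lower than Csn3, at 0.00535% to 0.165%, whereas Esr1 was at 9.14% to 22.6%, Pgr at 0.888% to 9.29%, Areg at 0.338% to 9.29% and Cited1 at 0.379% to 2.35%. General luminal genes had higher shares than Csn3, with 1.48% to 2.93% for Cldn3 and 15.8% to 31.4% for Krt8. Xdh, at 28.7% to 129%, overlapped with Krt8. The part of carried-over luminal RNA in the basal Csn3 counts was not tested.

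**Figure D4:**
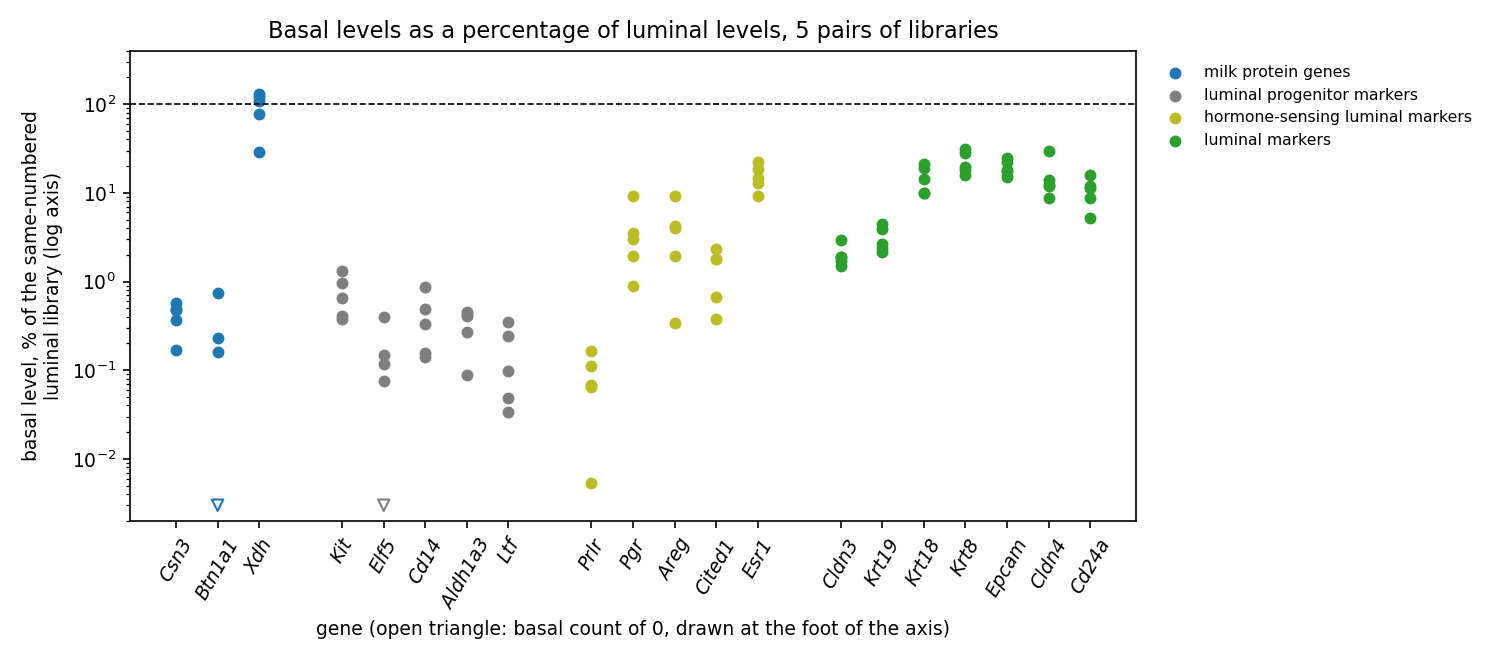
Level in each basal library as a percentage of that in the same-numbered luminal library (log axis, 1 point for each of 5 pairs), for 3 milk protein genes and 17 luminal markers; the dashed line marks equal levels. Csn3 and Btn1a1 lie under 1%, among the luminal progenitor markers, and Xdh lies at 28.7% to 129%. Btn1a1 in pairs 3 and 4 and Elf5 in pair 4 were at 0%, which a log axis cannot show to scale.

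The genes whose pattern was most like that of the summed caseins were sought among 10792 genes with a mean of at least 10 CPM in 1 group, by the root mean square difference of centred log2(CPM + 1) over the 10 libraries. After 1700066N21Rik, which holds the same reads (0.00490), came Mlph (melanophilin, a linker of vesicles to the cytoskeleton, 0.317), Cd14 (a receptor for bacterial lipopolysaccharide, 0.356), Cdo1 (cysteine dioxygenase, 0.472) and Aldh1a3 (a retinaldehyde dehydrogenase, 0.483). All 4 of the latter were at 0.504 to 2.58 CPM in basal and 233 to 935 CPM in luminal libraries. Over the luminal libraries only, an alternative chosen after the values were seen, the 4 genes after 1700066N21Rik were Gtf3c4, Sort1, Acsl1 and Rmnd5a. No gene but 1700066N21Rik was in both sets of 5. How far the likeness over 10 libraries follows the step between the cell types was not tested.

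The regulators of milk genes were expressed in these cells, several of them in both layers. Of 20 listed regulators, all 20 passed the filter. The test called 11 towards luminal and 6 towards basal libraries, beside 33.6% and 31.2% of all genes tested, and 3 did not pass the test. The 6 towards basal libraries were near that share. With the replicate block 10 were called towards luminal libraries. Socs3, an inhibitor of cytokine signalling (log2 fold change 0.43, adjusted p = 0.0313), then no longer passed the test (adjusted p = 0.0637, named after its values were seen). It also did not pass without the filter (0.36, edgeR adjusted p = 0.0778) or without any 1 of several libraries. The median log2 fold change of the 20 regulators was 0.66, beside 0.05 over all genes tested. Prlr, the prolactin receptor, was at 1190 ± 277 CPM in luminal and 0.993 ± 0.782 CPM in basal libraries (SD, n = 5), a log2 fold change of 10.21 (SE 0.51, edgeR adjusted p = 8.45e-10). Elf5, a transcription factor of the alveolar lineage, was at 92.03 ± 31.8 against 0.165 ± 0.197 CPM (log2 fold change 9.02, adjusted p = 1.08e-09, and 9.97 without basal replicate 1). Pgr, the progesterone receptor, was at 325 ± 200.3 against 7.61 ± 1.30 CPM (5.42, adjusted p = 9.59e-08). Prolactin receptor was therefore nearly confined to the luminal libraries, as Csn3 was.

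The next members of that pathway were present in both cell types. Stat5a and Stat5b, named here for their role after the values were seen, were at 174 ± 88.7 and 111 ± 37.9 CPM in luminal and 45.04 ± 9.36 and 54.6 ± 7.22 CPM in basal libraries (SD, n = 5). Their log2 fold changes were 1.95 and 1.02 (edgeR adjusted p = 5.22e-05 and 4.65e-04). Stat5a was 314 CPM in luminal replicate 1 and 187 in replicate 5, the highest luminal libraries, against 75.6 to 160 in the others. Higher in basal libraries were Socs1, an inhibitor of JAK kinases (-2.39, adjusted p = 9.56e-06), Cebpb (-1.58, adjusted p = 3.14e-06) and Nr3c1, the glucocorticoid receptor (-1.28, adjusted p = 1.06e-06). Cebpb was at 306 ± 59.1 CPM in luminal and 917 ± 165 CPM in basal libraries (SD, n = 5).

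Of 23 other listed genes of milk secretion, 17 passed the filter, of which 9 were higher in luminal and 5 in basal libraries, beside 33.6% and 31.2% of all genes tested, and 3 did not pass the test. The 5 in basal libraries were near that share. With the replicate block 4 were higher in basal libraries, as the lipid droplet protein gene Plin2 (log2 fold change -0.58, adjusted p = 0.0456) no longer passed the test (adjusted p = 0.0806, named after its values were seen). Their median log2 fold change was 1.04. Ltf, the iron-binding milk protein lactoferrin, was at 1508 ± 855 CPM in luminal and 1.75 ± 1.24 CPM in basal libraries (SD, n = 5; log2 fold change 9.77, SE 0.61, edgeR adjusted p = 7.26e-09). Wfdc18, a small secreted protein of the WAP family, was at 486 ± 177 against 0.586 ± 0.244 CPM (9.69, adjusted p = 8.99e-11). Pigr, which carries immunoglobulin A into milk, was at 11.4 ± 6.94 CPM in luminal libraries and had 906 luminal counts against 1 basal count in all (edgeR adjusted p = 6.45e-08). On scaled totals this was a ratio of 863, with an exact 95% interval of 154 to 34107 for counting error only. Ltf, also among the luminal progenitor markers summed above, was highest in luminal replicates 1 and 5, as was Pigr. Wfdc18 was highest in replicate 4, at 761 CPM. Thus a WAP-family gene was abundant where Wap itself had no count.

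Higher in basal libraries were Pthlh, the hormone that mobilises maternal calcium (log2 fold change -6.30, SE 0.27, adjusted p = 2.28e-10), Slc2a1, the glucose transporter GLUT1 (-3.63, SE 0.20, adjusted p = 2.53e-09), and Cd36, a fatty acid carrier of milk fat globules (-2.72, SE 0.58, adjusted p = 8.71e-04), all by edgeR. Slc2a1 was at 1226 ± 230 CPM in luminal and 15132 ± 1221 CPM in basal libraries (SD, n = 5). Cd36 was at 0.674 ± 0.634 and 4.55 ± 1.00 CPM. Its level in basal libraries stood beside endothelial markers, which were at 5.73 to 12.4 CPM summed in basal and 1.58 to 4.06 CPM in luminal libraries, and immune markers, at 26.2 to 52.02 and 14.8 to 19.9 CPM. Of the 5 of these markers that passed the filter, Cdh5, Cd74 and Csf1r were higher in basal libraries (edgeR adjusted p = 3.51e-06, 6.23e-06 and 0.0114), Cd52 was higher in luminal libraries (log2 fold change 2.03, adjusted p = 0.00664), and Pecam1 did not pass the test (adjusted p = 0.296). Adipocyte markers summed to 3.95 to 8.88 CPM in basal and 0.611 to 2.26 CPM in luminal libraries, mostly Fabp4 (5.42 ± 1.70 CPM in basal libraries, SD, n = 5), with Adipoq at 0 in every library. Without luminal replicate 3 the log2 fold change of Cd36 was -3.42 (adjusted p = 1.90e-04). A lineage stain with CD31, as in the study's methods, would mark endothelial cells, and the part of such cells in the Cd36 difference was not tested.

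**Figure D5:**
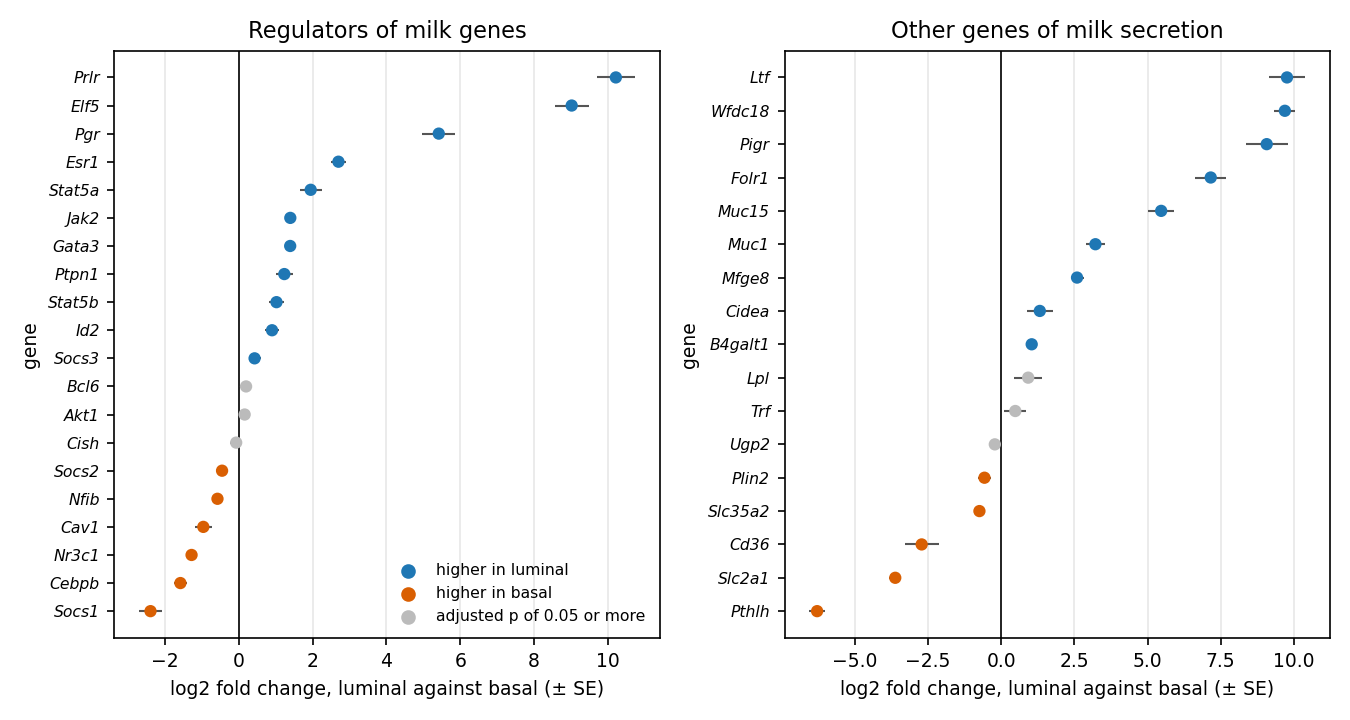
Log2 fold change of luminal against basal libraries with its SE for 20 regulators of milk genes (left) and 17 other genes of milk secretion (right), coloured by edgeR's test at an adjusted p of 0.05. Prlr and Elf5 lead the left panel and Ltf, Wfdc18 and Pigr the right one, and 6 and 5 genes are called towards the basal side.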

How the data were processed

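RNA-seq libraries of 5 luminal and 5 basal samples were analysed. The deposited table holds whole-number read counts for each gene, which the authors did not normalize. The submitters' processing notes name cutadapt 4.2, Bowtie2 2.3.5.1 and the build mm10, and the study describes single-end reads of 51 bases for its RNA-seq. The counting tool, its annotation and its strand setting are not given in the sources used here. Bowtie2 does not split reads over exon junctions. Of 24594 Entrez identifiers, 24570 were matched to a symbol in the RefSeq table of GRCm38.p6, which also gave promoters (7 of 10 members) and coordinates. Exons and transcripts were from GENCODE M21.

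Genes were filtered with filterByExpr (minimum count 10, minimum total 15), which left 14609, scaled by TMM and tested with edgeR 4.0.16 (quasi-likelihood, R 4.3.3), with Benjamini-Hochberg adjustment over all genes tested. CPM was computed from the deposited counts on TMM-scaled totals, with a pseudocount of 1 for log2 values. SE was taken as the absolute log2 fold change over the root of the F statistic. Alternatives were RLE and upper-quartile factors, library totals, no filter, at least 10 counts in every library, DESeq2 1.42.0, a replicate block, members left out of the totals, and leaving out each library. Leaving out luminal replicates 1 and 5 together was added after the values were seen. The tests were tested on simulated data, with no outcome reported here. The members and lists were chosen with earlier results of these data known.

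Replicate numbers come from the titles, and libraries with the same number begin with the same digits in their descriptions, read as the animal. Deviations from the group means correlated by -0.13 to 0.25 within such pairs (mean 0.0442), and by a mean of -0.0072 between differently numbered libraries. No 2 libraries of a group agreed within sampling noise (lowest chi-square per degree of freedom 14.4). Named genes are the members, the 3 largest changes in each direction of each list, the annotated genes of the casein cluster and the 5 genes most like the summed caseins. Others are marked where named. A listed marker is not reported here.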

Additional observations from a re-analysis of the deposited data

Results flagged for a closer look

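In groups of 5 libraries, 43 sets of values of the named genes with at least 10 counts in the group were examined for a library that stood apart from the others, and 3 had one. Chance gives about 1 in 20 for normally spread values, so 3 of 43 is near that rate. For sparse counts, as of Glycam1 and Btn1a1 in basal libraries, that rate does not hold. The 43 sets count the Csn3 reads again as 1700066N21Rik. Xdh was at 203 CPM in luminal replicate 1, where the next luminal library was at 103 CPM. Btn1a1 was at 0.686 CPM in basal replicate 1, where the next basal library was at 0.120 CPM, and the basal group held 14 counts in all. Glycam1 was at 2.73 CPM in basal replicate 2 and at 0 in the other 4 basal libraries. What sets these libraries apart was not tested.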

How the results depend on the processing

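Of the 20 named genes that could be tested, 19 kept their direction and their side of the threshold in every alternative that tested them. These 20 count the Csn3 reads again as 1700066N21Rik. They leave out Plin2, Socs2 and Socs3, which did not pass in several alternatives. Cidea did not pass without luminal replicate 4 (edgeR adjusted p = 0.0524). Bcl6 passed with library totals only (edgeR adjusted p = 0.0375) and Lpl without basal replicate 4 (0.0438), though not in the main edgeR test. Socs2, Cidea, Bcl6 and Lpl are named after their values were seen. The exception among the 20 was Xdh, at -0.15 without luminal replicates 1 and 5 against 0.41, with an adjusted p of 0.0735 to 0.901 over its alternatives (edgeR and DESeq2). The count of members higher in luminal libraries was 2, and 4 without the filter, which added Csn1s1 and Lalba (with Glycam1 higher in basal libraries), and 1 with at least 10 counts in every library, which left Btn1a1 untested. It was 3 with DESeq2 and 2 without each library in turn. With at least 10 counts in every library, 5 other milk genes were higher in luminal libraries instead of 9, of 11 tested. Without each library in turn that count was 8 to 10, the regulators higher in luminal libraries numbered 10 to 11, and the summed casein difference was 7.29 to 7.67 (exact permutation p = 0.00794). Over the same fits 4 to 5 other milk genes and 6 regulators were higher in basal libraries. With the replicate block, members, other milk genes and regulators higher in luminal libraries numbered 2, 9 and 10, those higher in basal libraries 0, 4 and 6, and the paired test of the summed caseins, with the same difference of 7.51, gave an exact p = 0.0625, the smallest that 5 pairs allow. Library totals without factors raised the median log2 fold change of all genes by 0.19 and upper-quartile factors by 0.12. Levels under 3 counts of a group's total, 0.0374 to 0.0393 CPM, could not be told from 0.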
